A study of Mus musculus with 4 samples.

Results

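B cells of the mouse lung were taken from 4 single-cell libraries by a rule on each cell's counts of unique molecular identifiers (UMIs, each 1 captured RNA molecule), and 547 of 25982 cells met it. A member had at least 5 UMIs of Cd79a, Cd79b and Ms4a1 together, at most 1 UMI of the T cell genes Cd3d, Cd3e, Cd3g and Trbc2, less than 0.2% of its UMIs from the myeloid genes Csf1r, C1qa, Marco and Lyz2, less than 5% from the surfactant genes Sftpc, Sftpb and Sftpa1, and at most 2 UMIs of the endothelial and fibroblast genes Cdh5, Cldn5, Col1a1 and Col1a2. The members were thus chosen by measured values, and the levels of these genes in them are given as a description. The series crosses FUNDC1 genotype with HySu, a model of pulmonary hypertension in which mice are kept in hypoxia and are given SU5416, which blocks the vascular endothelial growth factor receptor, in 3 weekly doses. The 4 groups were wild-type mice in normoxia, FUNDC1 knockout mice in normoxia, wild-type mice under HySu and FUNDC1 knockout mice under HySu. Normoxia mice received the carboxymethylcellulose vehicle without the drug. All mice were 11 weeks old. Each group was 1 library made from a pool of cells of 5 mice, so replicates are lacking throughout and the variation between mice was not measured. The series title calls the deficiency endothelial, while the labels name no cell type, promoter or Cre for the deletion, and they give no oxygen level, sex or batch.

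B cells carry the B cell receptor, a membrane immunoglobulin that signals through the Cd79a and Cd79b chains. Naive follicular B cells carry IgM and IgD and recirculate between blood and lymphoid tissue with the help of the homing receptor Ccr7. B-1 and memory cells differ in surface markers, integrins and isotype. Plasma cells secrete antibody, of which IgA and IgM can be joined by the J chain. In the lung, most B cells sit in capillaries or in small lymphoid aggregates, and IgA-secreting cells line the airways.

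The normoxia wild-type library gave 186 members of 7649 cells (2.43%, 95% interval 2.10 to 2.80), the normoxia knockout library 238 of 9164 (2.60%, 2.28 to 2.94), the HySu wild-type library 100 of 5041 (1.98%, 1.62 to 2.41) and the HySu knockout library 23 of 4128 (0.557%, 0.354 to 0.835). Intervals of shares are exact Clopper-Pearson intervals, those of ratios are exact conditional binomial intervals, and all of them cover counting error only. The share in the HySu knockout library was 0.281 times that in the HySu wild-type library (interval 0.170 to 0.445) and 0.215 times that in the normoxia knockout library (0.133 to 0.330). The other 3 libraries lay close together, with ratios of 0.816 (0.633 to 1.05) for HySu wild type and 1.07 (0.878 to 1.30) for normoxia knockout over normoxia wild type. T cells found by the mirrored rule were also scarcer in the HySu knockout library, at 1.14% of cells against 2.51%, 3.24% and 2.58% in the other libraries in the order above, and their ratio to HySu wild type was 0.442 (0.309 to 0.621). The deposited libraries differed in their lowest UMI count per cell, at 3775, 3182, 4230 and 4726 in that order, and on cells with at least 4726 UMIs the shares of members were 1.98%, 1.79%, 1.87% and 0.557%, with a HySu knockout to HySu wild type ratio of 0.297.

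The rule did not yield one kind of cell. Of the 547 members, 306 (55.9%) stayed under the second-lineage limits given below and lacked high J chain. These are called single-lineage B cells, a name that means only that they passed none of these limits. Among them, 1 HySu wild-type cell held 65 UMIs of the alveolar type 1 gene Ager. Likewise, 1 normoxia knockout cell held 50 UMIs of the platelet gene Itga2b. A further 57 (10.4%) also stayed under the second-lineage limits but had at least 10 UMIs of Jchain, the joining chain of secreted IgA and IgM. These are called antibody-secreting cells. In all, 68 members reached 10 Jchain UMIs, and those that also passed a second-lineage limit are counted as mixed. The remaining 184 (33.6%) held genes of a second lineage above limits set after the data were seen: at least 6 UMIs of airway or alveolar epithelial genes, over 0.5% of UMIs from neutrophil genes, at least 6 UMIs of natural killer genes, at least 10 of dendritic genes or at least 6 of stromal genes. These mixed cells gave 41.1%, 44.8%, 32.9% and 54.6% of all members' UMIs in normoxia wild type, normoxia knockout, HySu wild type and HySu knockout. Their neutrophil-type cells numbered 19, 28, 4 and 0, their dendritic-type cells 15, 18, 11 and 2, and their epithelial-type cells 14, 12, 7 and 6. No doublet caller was run, and whether the mixed cells were doublets was not tested. Mixed cells had a higher median depth than single-lineage cells in each library (5937.5 against 4737, 4584 against 4039, 8143 against 5816 and 7955 against 6679.5 UMIs), and fewer B identity UMIs at the median (38 against 70, 35.5 against 58, 34 against 74 and 22 against 68). The limits do not all cut between separate groups of cells, since 72 cells lay between 50% of the dendritic limit and the limit itself, and 68 did so for the stromal limit.

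Single-lineage B cells numbered 105, 126 and 69 in normoxia wild type, normoxia knockout and HySu wild type, which was 1.37% of cells in each, and 6 in HySu knockout, or 0.145%. The ratio of HySu wild type to normoxia wild type was 0.997 (0.725 to 1.36) and that of normoxia knockout to normoxia wild type was 1.00 (0.767 to 1.31), while HySu knockout stood at 0.106 times HySu wild type (0.0377 to 0.243). Antibody-secreting cells showed another ratio between these libraries: they numbered 19, 24, 6 and 8, or 0.248%, 0.262%, 0.119% and 0.194% of cells, with a HySu knockout to HySu wild type ratio of 1.63 (0.495 to 5.69). With 6 single-lineage cells, HySu knockout is given by its levels only.

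**Figure D1:**
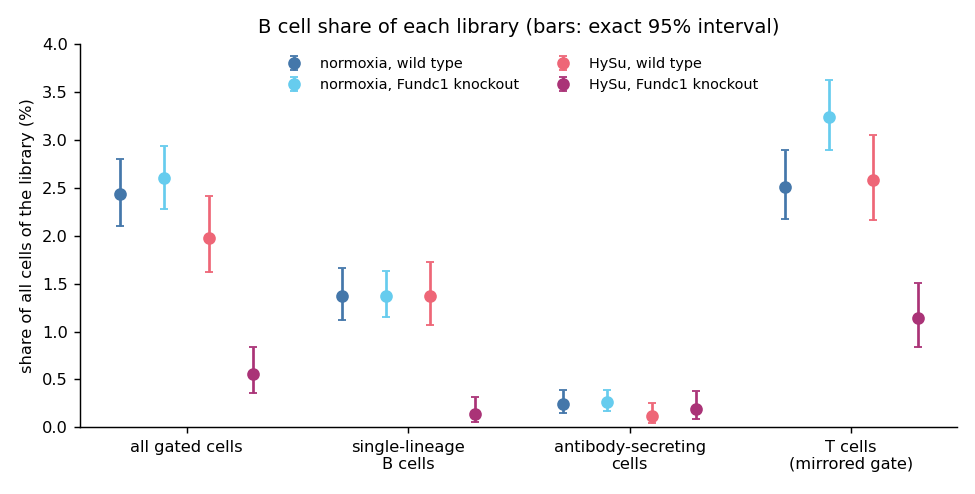
Share of all cells (percent, with exact 95% counting intervals) in each of the 4 libraries for all members of the rule, single-lineage B cells, antibody-secreting cells and T cells. Single-lineage B cells sit at 1.37% in 3 libraries and at 0.145% in HySu knockout, while antibody-secreting cells stay between 0.119% and 0.262%.

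At the edge of the rule, 8, 16, 2 and 2 members had exactly 5 marker UMIs, and 6, 18, 5 and 2 cells with 4 marker UMIs met every other condition. The members' median marker count was 22, 16, 22.5 and 21 UMIs. The label B cell was checked in single-lineage cells by B cell identity genes that the rule did not use. The 25 genes of the B cell identity list summed to 13770, 13438 and 12611 CPM (counts scaled to 1000000 UMIs over the cells summed) in normoxia wild type, normoxia knockout and HySu wild type, and to 727, 887 and 509 CPM in T cells. The lineage factor Pax5 was detected in 78 of 105, 78 of 126 and 28 of 69 cells and Ebf1 in 74, 81 and 25, so fewer HySu cells showed them. T cell marker genes summed to 105, 99.2 and 50.8 CPM over 12 genes, of which 10, 8 and 6 had any UMI. They include Cd3d, Cd3e, Cd3g and Trbc2, which the rule limits, so this low sum was partly set by the rule. Cd4 was at 0, 0 and 4.42 CPM and the natural killer gene Ncr1 at 0, 3.48 and 0 CPM. Genes that are very abundant in other lung cells were also present in each of these libraries. The 8 alveolar type 2 genes summed to 3377, 4483 and 2693 CPM and the 7 airway genes to 2085, 1480 and 3153 CPM. The 8 neutrophil genes summed to 803, 780 and 525 CPM and the 9 endothelial genes to 248, 331 and 188 CPM. The rule limits some alveolar type 2 and endothelial genes. Second-lineage limits apply to airway, neutrophil and natural killer genes, so these levels are a description and no check of the label. Immunoglobulin RNA was likewise found outside B cells, since 58.9%, 67.0% and 49.2% of T cells had an Ighm UMI. Of 25728 different barcodes, 252 occurred in more than 1 library, 7 members shared a barcode with a cell of another library, and 0 barcodes were members in more than 1 library.

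Fundc1, the deleted gene, encodes an outer-membrane protein of mitochondria that marks them for mitophagy. It had 14 UMIs in 10 of 105 single-lineage B cells of normoxia wild type (24.9 CPM), 0 in 126 cells of normoxia knockout, 10 in 8 of 69 cells of HySu wild type (22.1 CPM) and 0 in 6 cells of HySu knockout. The 0 of normoxia knockout allows up to 2.38% of cells with a UMI by a floor of 3 counts. It does not bound the share of cells that express the gene, since only 9.52% of normoxia wild-type cells had a UMI. T cells showed the same split, with Fundc1 in 20 of 192, 1 of 297, 16 of 130 and 0 of 47 cells. The absence of Fundc1 UMIs thus followed the knockout labels in lymphocytes, which are not endothelial. The HySu to normoxia ratio of Fundc1 in wild-type B cells was 0.886 (0.352 to 2.14).

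The first comparison asks how B cells of wild-type lungs differed between HySu and normoxia. In single-lineage B cells of the HySu library, genes of naive follicular cells and immediate early genes were mostly lower, 9 of 18 antigen presentation genes of MHC class I were higher and 0 lower, and Igkc, Lgals1, Itgb1, Ly6c2, Cxcr3 and Itgax were higher. Among 4743 genes with at least 30 UMIs in the pair, 11.9% were more than 1.5-fold higher under HySu and 33.5% were more than 1.5-fold lower, so a lower ratio is the more common one. The median gene had a log2 ratio of -0.27 in B cells and -0.29 in T cells. After scaling by trimmed means (TMM) this median became -0.04 and the split became 926 higher and 1072 lower, in place of 563 and 1591, so ratios below are to be read against that shift. Over all members of the rule, 9.16% of 7205 genes were higher and 34.3% lower, or 660 and 2469 genes, and 1394 and 1457 after TMM scaling.

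The follicular and recirculating list had 10 genes, all of which could be compared, and 0 were higher and 8 lower by more than 1.5-fold, with a median log2 ratio of -1.31 (-1.08 after TMM scaling). The same genes had a median of -0.76 in T cells and -0.82 in the other lung cells, which carry several of them. Ighd, the constant region of IgD, stood at 1435 CPM in normoxia wild type, 1412 in normoxia knockout and 336 in HySu wild type. Both normoxia libraries were high and HySu was low, a ratio of 0.234 (0.195 to 0.278), while Ighd in T cells had a ratio of 0.957. Ccr7, the receptor that guides lymphocytes into lymph nodes, was at 698, 512 and 199 CPM, a HySu ratio of 0.285 (0.224 to 0.359). Fcer2a, the CD23 receptor of follicular cells, was at 142, 145 and 57.4 CPM, a ratio of 0.403 (0.248 to 0.634). Klf2, a transcription factor that maintains recirculation, stood at 2313, 1901 and 1091 CPM. Satb1, a chromatin organiser, had 45 UMIs in 26 cells, 94 UMIs in 44 cells and 1 UMI in 1 cell, so it was near absent under HySu (ratio 0.0275, 6.83e-04 to 0.162). Cxcr5, which directs B cells to follicles, differed least of the list, at 150, 122 and 113 CPM (ratio 0.753, 0.521 to 1.08).

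The share of cells with a UMI followed the levels. Ighd was detected in 81.0% of normoxia wild-type, 71.4% of normoxia knockout and 36.2% of HySu wild-type single-lineage cells, and in 8.85%, 15.8% and 10.0% of T cells. Median depths were 4737, 4039 and 5816 UMIs in the B cells and 5138, 4401 and 5651.5 UMIs in the T cells. After thinning every cell to 4726 UMIs, which kept 53, 37 and 55 cells and left out 52, 89 and 14, the Ighd shares were 77.4%, 56.8% and 29.1%. Thinned shares of Ccr7 were 75.5%, 51.4% and 41.8%, and those of the chemokine receptor Cxcr4 were 54.7%, 48.6% and 14.5%. The HySu cells were thus lower for these 3 genes at equal depth too.

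**Figure D2:**
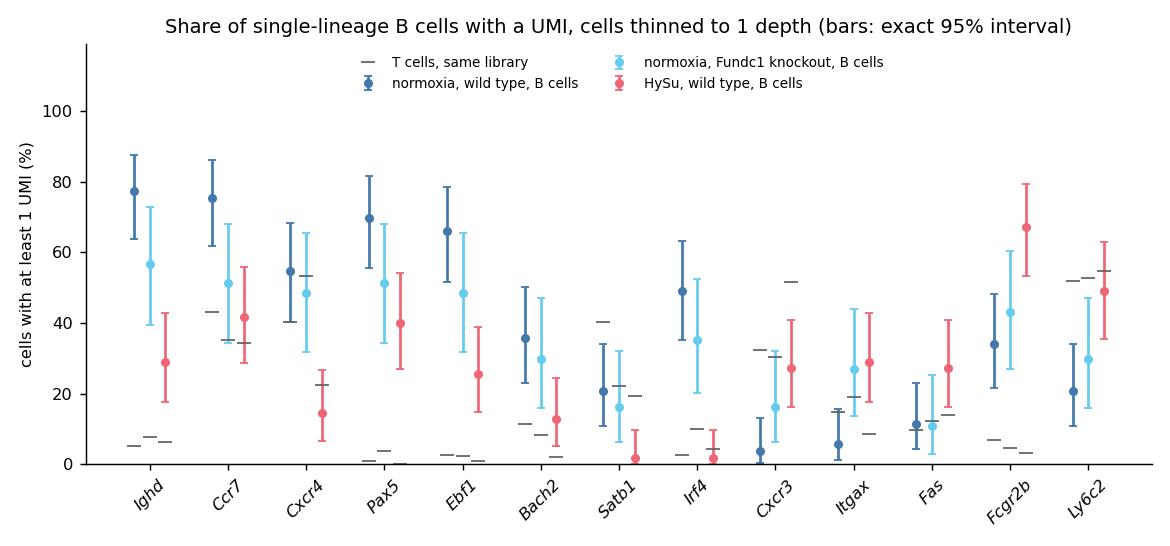
Share of single-lineage B cells with at least 1 UMI of each gene (percent, exact 95% counting intervals) after thinning to 4726 UMIs per cell in normoxia wild type, normoxia knockout and HySu wild type, with the T cell share as a dash. Ighd goes from 77.4% in normoxia wild type to 29.1% under HySu, and Fcgr2b from 34.0% to 67.3%.

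Of the chemokine and homing receptors, 2 of 14 compared were higher and 4 lower, with a median of -0.21, or 0.02 after TMM scaling, close to that of all genes. Cxcr4, which retains cells in bone marrow and tissue, stood at 372, 364 and 70.6 CPM (HySu ratio 0.190, 0.127 to 0.276, against 0.427 in T cells). Cxcr3, a receptor for interferon-induced chemokines, stood the other way. It had 8 UMIs in 5 cells of normoxia wild type, 20 in 12 cells of normoxia knockout and 45 in 18 cells of HySu wild type. The Cxcr3 ratio was 6.97 (3.25 to 17.1), and it was 2.00 in T cells, so the gene was higher there too. Itgb1, the beta-1 integrin chain, was at 224, 454 and 748 CPM. Its ratio was 3.34 (2.71 to 4.13) under HySu, with the knockout library between the wild-type libraries, and it was 0.540 in T cells. Its partner Itga4 had a ratio of 0.590. The homing genes of these cells therefore did not differ in 1 direction.

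B cell identity genes were lower under HySu for 13 of 25 and higher for 2, with a median of -0.65 (-0.43 after TMM scaling). The same genes had lower medians outside the rule. These were -0.73 in T cells, over the 10 of 25 that could be compared, and -0.99 over all 25 in other cells. The other cells include cells that had at least 5 marker UMIs but failed another condition. In normoxia wild type 800 cells reached 5 marker UMIs and 186 were members, and in HySu wild type 355 and 100. Their part in the -0.99 was not tested. Among the identity genes lower in single-lineage cells were the transcription factors that set up the B lineage. Pax5 was at 420, 336 and 141 CPM (HySu ratio 0.336, 0.251 to 0.445). Ebf1 was at 386, 315 and 92.7 CPM (0.240, 0.168 to 0.335). Bach2, a repressor that delays plasma cell differentiation, was at 183, 205 and 24.3 CPM (0.132, 0.0641 to 0.247). In both normoxia libraries these 3 factors were high and in HySu they were low. Other identity genes stayed level: Ly6d had a ratio of 0.955, Cd37, a tetraspanin, was at 871, 836 and 841 CPM, and Cd22, an inhibitory co-receptor, at 789, 862 and 631 CPM. Irf4, which drives class switching and plasma cell formation, did not take the opposite course to Bach2. It had 110 UMIs in 48 cells, 65 in 40 cells and 5 in 4 cells (ratio 0.0564, 0.0179 to 0.136), although over all members of the rule, antibody-secreting cells included, the ratio was 0.381.

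Of 24 B cell receptor signalling genes compared, 2 were higher and 12 lower, with a median of -0.57 (-0.34 after TMM scaling). This list holds Cd79a and Cd79b, so here and below its counts and medians include genes on which the members were chosen. Levels of the rule's own genes are given as a description. Cd79a stood at 1551, 1085 and 1144 CPM, Cd79b at 2125, 2244 and 2283 CPM and Ms4a1, the CD20 antigen, at 2223, 1980 and 1258 CPM. Downstream, Pik3cd, the catalytic subunit of the lymphocyte PI3-kinase, was at 207, 164 and 68.4 CPM (ratio 0.331, 0.215 to 0.496), and the adaptor Vav1 and the kinase Btk had ratios of 0.296 and 0.468. Syk, the kinase that binds the receptor chains, was not lower, at 659, 914 and 837 CPM. Fcgr2b, the inhibitory Fc receptor of B cells, had the highest ratio of the list, at 146, 186 and 347 CPM (ratio 2.37, 1.81 to 3.14), and the tetraspanin Cd81 had a ratio of 1.62.

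Activation and immediate early genes, which switch on within minutes of a stimulus and also during tissue dissociation, were lower under HySu for 22 of 25 compared and higher for 1. Their median was -1.19 in B cells, -0.94 in T cells and -0.69 in other cells. The direction was therefore shared by other cells of these libraries. Fos, the partner of Jun in the AP-1 factor, stood at 3019, 2721 and 903 CPM (ratio 0.299, 0.268 to 0.333, against 0.409 in T cells). Nr4a1, a nuclear receptor induced by antigen receptor signals, was at 563, 355 and 124 CPM (0.220, 0.162 to 0.293, against 0.435 in T cells). Dusp1, a phosphatase of MAP kinases, was at 684, 724 and 166 CPM (0.242, 0.186 to 0.311), and Btg2, a brake on proliferation, at 470, 407 and 296 CPM (0.629, 0.507 to 0.778). The exception was Cd86, a costimulatory ligand for T cells, at 23.2, 41.8 and 55.2 CPM (2.38, 1.17 to 5.07). Per cell, the list took a median of 173 UMIs per 10000 in normoxia wild type, 134 in normoxia knockout and 68.1 in HySu wild type, and in T cells 96.6, 91.3 and 49.3.

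Promoters of 3 of these genes are shown because they were low together under HySu and hold the same short motif, the core of the cyclic AMP response element. The sequences are the 250 bases before the start in RefSeq (GRCm38.p6), 5' to 3' on the gene's strand, with TGACGT or the full element TGACGTCA in capitals: Fos at chr12:85473640-85473889 on the plus strand, Dusp1 at chr17:26508473-26508722 on the minus strand and Btg2 at chr1:134079156-134079405 on the minus strand.
Fos: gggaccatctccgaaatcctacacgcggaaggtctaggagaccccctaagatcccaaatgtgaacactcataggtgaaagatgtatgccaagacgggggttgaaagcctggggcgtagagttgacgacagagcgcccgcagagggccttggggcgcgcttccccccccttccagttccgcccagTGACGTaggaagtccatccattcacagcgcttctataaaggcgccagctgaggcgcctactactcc
Dusp1: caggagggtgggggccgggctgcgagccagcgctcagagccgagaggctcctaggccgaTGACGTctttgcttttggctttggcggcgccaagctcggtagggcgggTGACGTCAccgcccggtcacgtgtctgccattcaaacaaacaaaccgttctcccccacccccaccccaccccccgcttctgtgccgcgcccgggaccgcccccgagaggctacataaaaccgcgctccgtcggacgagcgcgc
Btg2: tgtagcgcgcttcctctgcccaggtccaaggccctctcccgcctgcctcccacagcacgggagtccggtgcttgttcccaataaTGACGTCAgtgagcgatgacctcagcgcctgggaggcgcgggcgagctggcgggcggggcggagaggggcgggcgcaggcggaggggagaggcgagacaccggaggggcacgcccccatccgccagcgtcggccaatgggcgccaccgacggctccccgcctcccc
Searched on both strands, TGACGT was in the promoter of 8 of the 21 list genes with an entry (38.1%) and of 1971 of 27025 genes (7.29%), and the full element TGACGTCA, which contains it, was in 2 of 21 (9.52%) and 478 of 27025 (1.77%). In Fos it starts 66 bases before the start. The 8 genes were Atf3, Btg1, Btg2, Dusp1, Egr2, Fos, Nr4a3 and Tnfaip3. The core was also in 3 of 16 class I promoters (18.8%; H2-Q4, H2-Q7 and H2-T22), genes with HySu ratios of 0.963, 3.15 and 1.58. In all, 8 motifs were searched, and a match describes the letters and not a bound site: the E-box CACGTG was in 6 of 21 list promoters (28.6%) against 6.86% of all, the TATA box TATAAA in 4 (19.0%) against 14.3%, the kappaB motif in 5 (23.8%) against 8.23%, the CArG box in 2 (9.52%) against 1.62%, and the octamer ATGCAAAT in 1 against 1.81%.

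MHC class I genes, which display cytosolic peptides to CD8 T cells, were higher in B cells under HySu for 9 of 18 and lower for 0, with a median of 0.52 (0.75 after TMM scaling), against -0.20 in T cells and 0.03 in other cells. B2m, the invariant light chain, stood at 3052, 2760 and 5932 CPM (ratio 1.94, 1.83 to 2.07, against 1.60 in T cells and 1.40 in other cells). H2-Q7, a Qa-2 molecule, was at 474, 541 and 1490 CPM (3.15, 2.73 to 3.64, against 1.68 in T cells); reads of the near-identical H2-Q genes can be split between them. The immunoproteasome subunits Psmb8 and Psmb9, which cut the peptides, were at 664, 550 and 1130 CPM and 255, 293 and 508 CPM, ratios of 1.70 and 1.99. The classical heavy chains H2-K1 and H2-D1 were higher by less, with ratios of 1.28 and 1.35, and the peptide editor Tapbp was at 0.770. The normoxia libraries lay close for B2m, H2-Q7 and Psmb8, and HySu stood above both. MHC class II genes, which B cells use to present to CD4 T cells, had a median of 0.11, with 3 of 12 higher and 2 lower. Cd74, the invariant chain, was at 14308, 12581 and 18004 CPM (1.26), H2-Eb1 at 2689, 2364 and 4217 CPM (1.57), and Ciita, the master regulator of these genes, had a ratio of 0.647.

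The promoters of B2m and H2-Q7 are shown, for the light chain common to class I molecules and the member with the highest ratio, in the same form: B2m at chr2:122147437-122147686 on the plus strand, with its match to the interferon response core (GAAA, any 2 bases, GAAA) in capitals, and H2-Q7 at chr17:35438905-35439154 on the plus strand, with its match to the kappaB motif in capitals.
B2m: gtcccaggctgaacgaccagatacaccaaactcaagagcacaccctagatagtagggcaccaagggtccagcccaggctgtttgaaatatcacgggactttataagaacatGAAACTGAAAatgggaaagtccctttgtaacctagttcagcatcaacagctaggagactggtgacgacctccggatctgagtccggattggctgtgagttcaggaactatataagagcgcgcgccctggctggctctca
H2-Q7: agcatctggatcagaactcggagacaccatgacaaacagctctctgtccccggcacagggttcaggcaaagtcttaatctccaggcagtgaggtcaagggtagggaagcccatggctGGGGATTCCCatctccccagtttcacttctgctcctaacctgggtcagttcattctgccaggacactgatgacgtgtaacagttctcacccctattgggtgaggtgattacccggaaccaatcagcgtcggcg
These matches start 139 and 133 bases before the start. On either strand, the kappaB motif was in 9 of 16 class I promoters (56.2%; B2m, Calr, H2-D1, H2-K1, H2-M3, H2-Q4, H2-Q6, H2-Q7 and H2-T22) against 8.23% of all genes. The interferon core was in 3 of 16 (18.8%; B2m, H2-T22 and H2-T23), in 16 of 25 interferon response promoters, in 0 of 21 immediate early promoters and in 3.46% of all genes. The interferon response genes themselves did not share a direction: of 21 compared, 7 were higher and 5 lower, with a median of 0.09. Isg15, a ubiquitin-like modifier, had a ratio of 2.58, while Ifi203, Ifi209 and Xaf1 were at 0.517, 0.531 and 0.301.

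**Figure D3:**
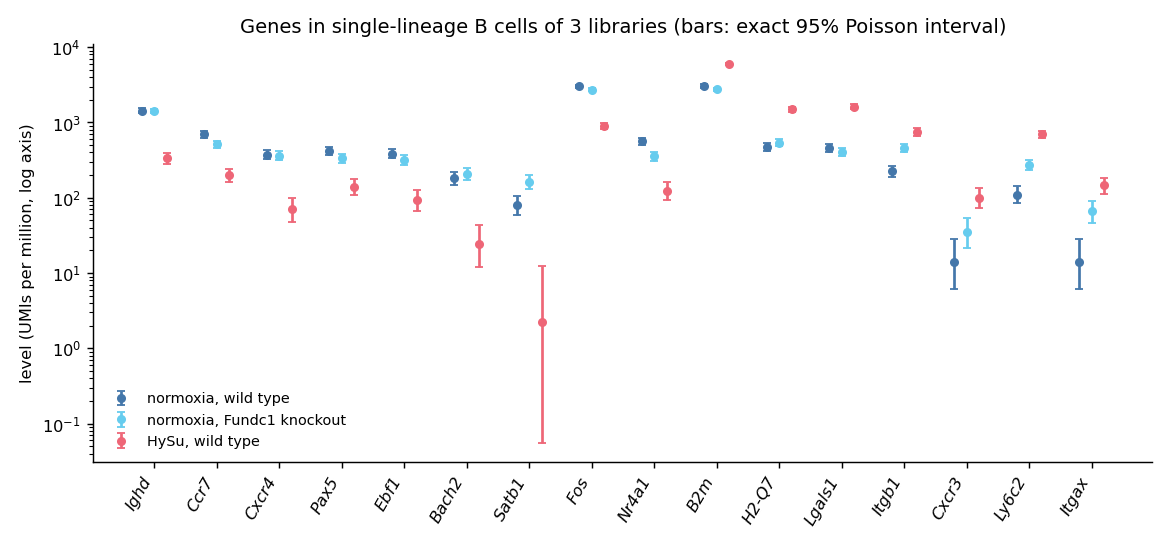
Level of 16 genes in single-lineage B cells (CPM, log axis, exact 95% Poisson counting intervals) in normoxia wild type, normoxia knockout and HySu wild type. Ighd, Cxcr4, Bach2 and Fos are lowest under HySu, and B2m, H2-Q7, Lgals1 and Cxcr3 highest.

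Immunoglobulin constant genes were higher under HySu for 8 of 11 and lower for 1, Ighd, with a median of 1.01, but part of this came from few cells. Igkc, the kappa light chain, stood at 10374, 10480 and 44787 CPM (ratio 4.32). A single HySu cell held 3604 of its 20286 UMIs, and without the highest cell of each library the ratio was 3.77. Ighm was at 6133, 9679 and 9116 CPM, ratios of 1.49 (1.42 to 1.56) for HySu and 1.58 (1.51 to 1.65) for normoxia knockout. Ighg2b was at 139, 427 and 1576 CPM, but 578 of 714 HySu UMIs lay in 1 cell, and its ratio of 11.3 was 3.59 without the highest cells. For Igha, 327 of 516 HySu UMIs lay in 1 cell, and the ratio of 2.01 was 1.34 without the highest cells. Ighg2c kept a higher level in HySu without such cells, with a ratio of 2.75 with them and 5.21 without.

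By the heavy-chain gene with most UMIs in a cell (at least 2), IgM or IgD led in 92 of 105 normoxia wild-type cells (87.6%), 108 of 126 normoxia knockout cells (85.7%) and 50 of 69 HySu wild-type cells (72.5%, interval 60.4 to 82.5). IgG genes led in 9 (8.57%), 16 (12.7%) and 14 (20.3%, 11.6 to 31.7) cells, and Igha in 3, 2 and 4. Lambda light chains led in 10 (9.52%), 19 (15.1%) and 2 (2.90%) cells. The HySu cells thus had the highest IgG share and the lowest lambda share of the 3 libraries, on small counts. A heavy-chain V gene was seen at 2 or more UMIs in 21, 13 and 13 cells, spread over 17, 11 and 12 different V genes, and a light-chain V gene in 20, 22 and 27 cells over 16, 20 and 16.

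Of 9 genes of the B-1 list compared, 5 were higher under HySu and 0 lower, with a median of 0.61 (0.19 in T cells). Lgals1, the lectin galectin-1, stood at 459, 407 and 1621 CPM (ratio 3.53, 3.06 to 4.08, against 2.19 in T cells). Zbtb32, a transcriptional repressor, was at 123, 148 and 236 CPM (1.92, 1.41 to 2.64) and Spn, the CD43 antigen, at 80.1, 155 and 219 CPM (2.73). The defining marker Cd5 had 6, 5 and 0 UMIs, and Bhlhe41, a factor of B-1 cells, had a ratio of 1.07, so 2 of the markers most often used for these cells did not go with the others. Anxa2 had a ratio of 1.89, but 1.07 over all members of the rule. Of the marginal zone list, 2 of 7 were higher and 3 lower: Cr2, the complement receptor, was at 97.9, 131 and 39.7 CPM (0.406) and the receptor Notch2 had a ratio of 0.301, while the tetraspanin Cd9 was at 2.04 and Mzb1 at 2.64, with 109 of 509 Mzb1 UMIs in 1 cell.

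The rule of size for single genes named Cxcl10, Itgax, Tnf, Cxcr3 and Ly6c2 among the 10 highest ratios under HySu. Itgax, the CD11c integrin, had a level of 14.2 CPM in 6 cells of normoxia wild type, 66.2 CPM in 19 of normoxia knockout and 146 CPM in 17 of HySu wild type (ratio 10.2, 4.90 to 24.7, against 0.454 in T cells). Ly6c2 was at 110, 273 and 693 CPM, in 25, 29 and 35 cells (6.28, 4.77 to 8.38). Over all members of the rule the Ly6c2 ratio was only 1.70. Cxcl10, an interferon-induced chemokine, was at 21.4, 27.9 and 219 CPM in 5, 3 and 17 cells (10.2, 5.60 to 20.5). The cytokine Tnf had a ratio of 7.26 (3.23 to 19.2). Fas, a death receptor of activated and memory B cells, was at 26.7, 34.8 and 124 CPM (4.63, 2.58 to 8.81). T cells carry most of these transcripts themselves, at thinned shares of 51.6% for Cxcr3 and 22.6% for Cxcl10 in HySu against 27.3% and 27.3% in the B cells, and the part of free RNA in these shares was not tested. Conventional dendritic markers, which include Itgax, summed to 322, 456 and 495 CPM over 9 genes, of which 3, 7 and 7 had a UMI, and macrophage and monocyte markers, which include Ly6c2, to 2053, 2396 and 2656 CPM over 12 genes. Csf1r, C1qa and Lyz2 were at 13.2, 0 and 771 CPM in HySu against 14.2, 3.56 and 855 in normoxia wild type. The rule limits these genes and Marco, all members of the macrophage and monocyte list, so their levels were bounded by the selection. What part RNA of dendritic cells, macrophages or monocytes had in the Itgax and Ly6c2 results was not tested.

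The other high ratios were Derl3 at 18.6 (17 of 30 HySu UMIs in 1 cell), Ager at 8.55 (65 of 69 in 1 cell, and 0.708 without the highest cells), Spaca9 at 8.37, Crip2 at 7.97 and Gng12 at 6.94. The 10 lowest were Satb1, Irf4 and Bach2, given above, and Dicer1 (0.106), Tnrc6c (0.108), Ivd (0.109), Rlf (0.120), Ganc (0.120), Nelfcd (0.134) and Mcm5 (0.134). In T cells the genes from Dicer1 to Mcm5 had ratios of 0.532, 0.259, 0.647, 0.563, 0.544, 0.595 and 0.940 in that order. All but Mcm5, which was nearly level, were thus lower there too, by less than in the B cells. Satb1 and Bach2 were at 0.278 and 0.268 in T cells, and Irf4 at 1.16. Dicer1 and Tnrc6c both act in microRNA silencing, as the nuclease that cuts the precursor and as a scaffold of the silencing complex.

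Among glucocorticoid and clock genes, 5 of 7 compared were lower and 1 higher, with a median of -1.08 in B cells and -1.11 in T cells. Tsc22d3, a glucocorticoid-induced leucine zipper protein, was at 684, 881 and 327 CPM (HySu ratio 0.478, 0.465 in T cells), and Txnip, an inhibitor of glucose uptake and thioredoxin, at 595, 975 and 280 CPM (0.471, 0.428 in T cells). Sesn1, a stress-induced inhibitor of mTORC1 signalling, was at 110, 221 and 26.5 CPM (0.240, 0.118 to 0.450). B cells and T cells were alike in this group. Stress response genes had a median of -0.66, with 7 of 13 lower and 1 higher. Mitochondrially encoded genes were higher for 3 of 7, with mt-Cytb at 3191, 2150 and 6683 CPM (2.09, 1.97 to 2.22, against 2.18 in T cells). Nuclear respiratory chain genes had a median of 0.30 over 78 genes (0.32 in T cells), with 17 higher and 4 lower.

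The remaining lists had smaller medians. Survival and cytokine receptor genes were lower for 6 of 18 and higher for 0 (median -0.37), a share of lower genes close to the 33.5% of all genes. Members of the NF-kappaB family among them were Relb at a ratio of 0.193, Rel at 0.477 and Nfkb1 at 0.485. Tnfrsf13c, the receptor for the survival factor BAFF, was at 244, 164 and 170 CPM (0.697). Antioxidant genes had a median of 0.25 over 16, hypoxia and glycolysis genes 0.02 over 12 and mitophagy and autophagy genes 0.12 over 15, with 2 of 12 hypoxia and glycolysis genes higher and 1 lower. Cell cycle genes had a median of -0.29 over 16, and at least 5 cycle genes were detected in 12 of 105, 12 of 126 and 8 of 69 cells. In 1 HySu cell, 24 UMIs of Igll1 and 13 of Vpreb1, the surrogate light chain of precursor B cells, were found.

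**Figure D4:**
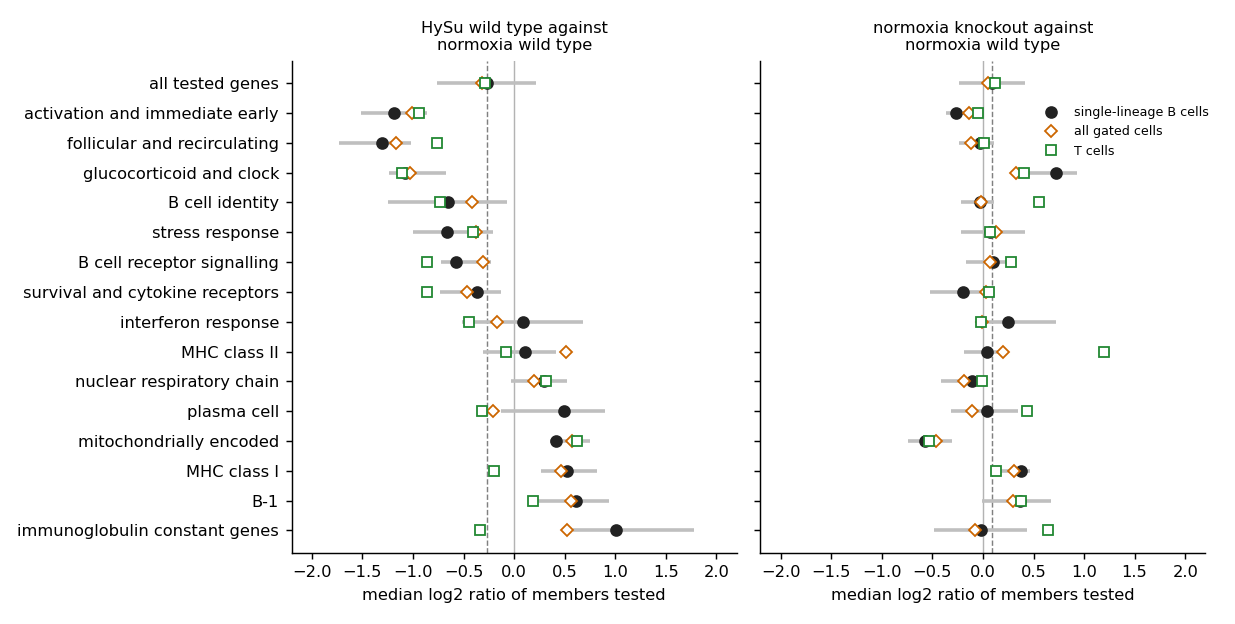
Median log2 ratio of 16 gene lists for HySu wild type and for normoxia knockout, each against the same normoxia wild-type library, in single-lineage B cells (circle, with the quartiles of the members as a bar), all members of the rule (diamond) and T cells (square), with the median of all genes in single-lineage cells as a dashed line. The follicular list is at -1.31 and the immediate early list at -1.19 under HySu, and both lie near 0 in the knockout, at -0.03 and -0.27.

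The same ratios were taken within cells that had an Ighd UMI (85 in normoxia wild type, 90 in normoxia knockout and 25 in HySu wild type) and within cells that had none (20, 36 and 44). Ighd itself was lower under HySu, so the split follows a difference between the libraries, and the values are a description that does not show what part fewer IgD-bearing cells had. All genes compared had medians of -0.21 and -0.16 in the cells with and without an Ighd UMI. Immediate early genes had -1.15 and -0.93, class I genes 0.70 and 0.37, class II genes 0.35 and -0.10, B cell identity genes -0.37 and -0.44, and follicular genes, a list that holds Ighd, -1.26 and -0.72. B cell receptor signalling genes were at -0.19, the level of all genes, in IgD-bearing cells and at -0.61 in the rest. Pax5 had ratios of 0.438 and 0.539, Ebf1 of 0.344 and 0.227 and Ccr7 of 0.373 and 0.217. Fcgr2b had a ratio of 3.48 in IgD-bearing cells and 0.979 in the rest, and Bach2 of 0.0852 and 0.527; these differences were not tested. Ighm went from 0.881 in IgD-bearing cells to 3.00 in the rest. B-1 genes had medians of 0.21 and 0.09 within the groups, below the 0.61 of all cells together. Because detection of Ighd depends on depth and level, the groups are not cell types.

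The second comparison asks how B cells of FUNDC1 knockout lungs differed from wild type in normoxia; it shares the normoxia wild-type library with the first. Among 5495 genes compared in single-lineage cells, 16.6% were more than 1.5-fold higher in the knockout library and 9.66% lower, or 911 and 531 genes, with a median log2 ratio of 0.09, and TMM scaling gave 705 and 739. Over all members, 13.0% of 8363 genes were higher and 11.6% lower, or 1084 and 974, and 956 and 1074 after TMM scaling. B cell identity genes had 0 of 25 higher and 0 lower (median -0.03), follicular genes 1 of 10 higher and 0 lower (-0.03), receptor signalling genes 1 of 24 higher and 0 lower (0.10) and class II genes 1 of 12 higher and 0 lower (0.04). B-1 genes were higher for 3 of 10 and lower for 0, with a median of 0.37 (0.38 in T cells). Shares of knockout and wild-type cells with a UMI were 61.9% against 74.3% for Pax5 and 64.3% against 70.5% for Ebf1, and after thinning 51.4% (interval 34.4 to 68.1) against 69.8% (55.7 to 81.7) for Pax5 and 18 of 37 against 35 of 53 cells for Ebf1.

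Glucocorticoid and clock genes in the knockout had 4 of 6 higher and 0 lower, with a median of 0.72 (0.41 in T cells and 0.37 in other cells). The clock gene Per1 went the other way in detection. It had a UMI in 25.4% of knockout and 41.9% of wild-type single-lineage cells, and in 16.2% and 34.0% after thinning. The higher median is thus not a statement about clock genes. Txnip had a ratio of 1.64 (1.43 to 1.88), Sesn1 of 2.00 (1.47 to 2.76), Tsc22d3 of 1.29 (1.13 to 1.47), and Ddit4, an inhibitor of mTORC1, was at 51.6 CPM in wild type and 122 in the knockout (2.36, 1.51 to 3.77). For Txnip, Sesn1 and Tsc22d3 the knockout was the highest and HySu the lowest of the 3 libraries. Immediate early genes had a median of -0.27 (-0.05 in T cells), with 4 of 25 lower and 1 higher. Fosb was at 577 and 277 CPM (0.480, 0.394 to 0.582), Egr1 at 335 and 193 CPM (0.577), and Fos at 3019 and 2721 CPM (0.902).

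Class I genes had a median of 0.38 (0.13 in T cells), with 3 of 18 higher and 0 lower, a share of higher genes close to the 16.6% of all genes: H2-M3 at 2.18, the peptide transporter Tap2 at 2.12 (1.41 to 3.24) and H2-Q6 at 1.53, while B2m was at 0.904. Interferon response genes were higher for 6 of 22 and lower for 2, with Igtp at 3.30, Isg15 at 2.44 and Gbp7 at 2.25, against Xaf1 at 0.237 and Ifi27l2a at 0.611. Itgb1, Spn, Satb1 and Syk were higher in the knockout, with ratios of 2.03 (1.63 to 2.53), 1.93, 2.04 (1.42 to 2.98) and 1.39 (1.21 to 1.59). Mitochondrially encoded genes were lower for 3 of 7, with a median of -0.57 in B cells, -0.53 in T cells and -0.56 in other cells: mt-Cytb was at 0.674, mt-Nd4 at 0.606 and mt-Nd2 at 0.594. Ribosomal protein genes had a median of -0.26, and -0.29 in T cells. Mitophagy and autophagy genes, the pathway of Fundc1, were higher for 4 of 17 and lower for 1 (median 0.10), with the receptor Bnip3l at 2.38 and Calcoco1 at 3.35 against Atg12 at 0.548.

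The highest ratios in the knockout by the rule of size came largely from single cells. Platelet genes led: Itga2b had 50 of 50 UMIs in 1 cell, Clec1b 32 of 33 in 1 cell and Thbs1 34 of 52. Pf4 had 35 UMIs, 27 of them in 1 cell, against 0 (at least 11.4-fold higher by a floor of 3 counts in the wild-type library). Ctla2a had 70 of 81 and Slc2a3 23 of 35 in 1 cell. Lpin2, a lipin phosphatase of lipid synthesis, had 51 UMIs in 23 cells, 19 of them in 1 cell (8.31). Crip2, Coq8b and Nit1 were at 7.26, 7.33 and 6.19. The lowest were Bola1 (0.104, with 19 of 47 wild-type UMIs in 1 cell), Pdcd2l (0.159), Dnajc15 (0.173), Tubb6 (0.230), Rnaseh2b (0.237), Xaf1 (0.237), Exosc1 (0.273), Cryzl1 (0.273), Marcksl1 (0.289) and Cenpa (0.291).

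**Figure D5:**
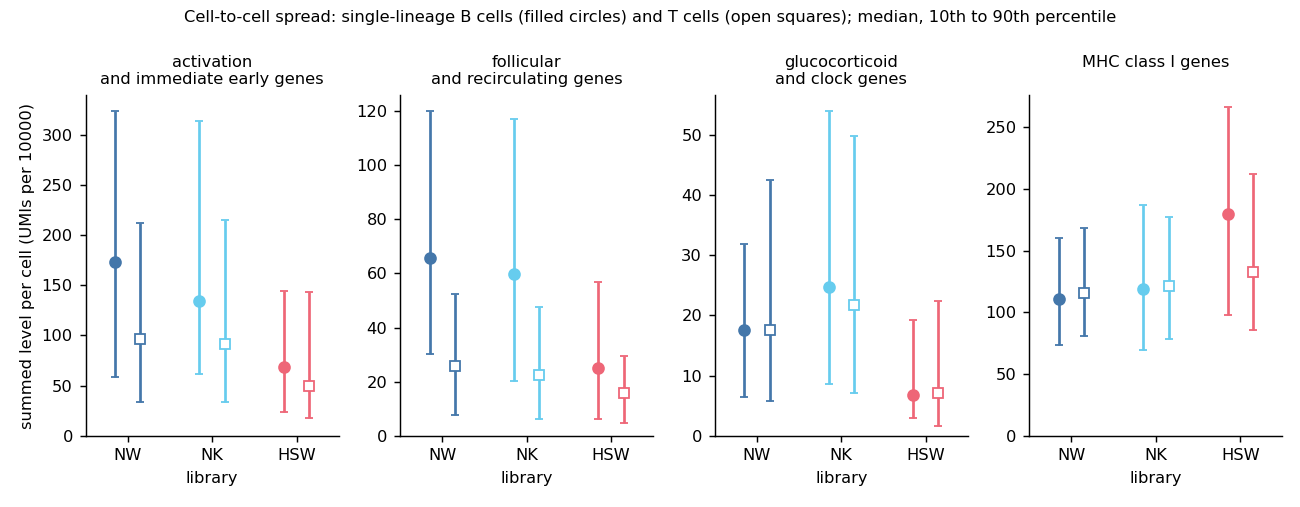
UMIs per 10000 in single cells for 4 gene lists (median with the range from the 10th to the 90th percentile). Single-lineage B cells (filled circles) and T cells (open squares) are drawn for normoxia wild type, normoxia knockout and HySu wild type. In B cells the immediate early median goes from 173 in normoxia wild type to 68.1 in HySu wild type and the class I median from 111 to 180. HySu knockout is not drawn.

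The 6 single-lineage B cells of HySu knockout had median list levels of 53.8 UMIs per 10000 for immediate early genes, 19.3 for follicular genes and 6.98 for glucocorticoid and clock genes, near the HySu wild-type medians of 68.1, 24.9 and 6.80. Their class I median was 78.5, against 180 in HySu wild type and 111 in normoxia wild type. Ighd had 10 UMIs in them. IgM or IgD led in 3 of 6 cells and IgG in 3 of 6.

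The antibody-secreting cells were IgA cells for the most part: Igha led in 16 of 19 normoxia wild-type, 19 of 24 normoxia knockout, 4 of 6 HySu wild-type and 5 of 8 HySu knockout cells, and kappa light chains led in 56 of all 57. Jchain, by which they were chosen, stood at 27730, 25165, 35554 and 12602 CPM. Igha took 121367, 126996, 94525 and 40458 CPM. Xbp1, the factor that expands the secretory apparatus, was at 1037, 727, 914 and 540 CPM, and Tnfrsf17, the BCMA receptor of plasma cells, at 719, 261, 347 and 458 CPM. Pax5 was detected in 1, 1, 0 and 2 of these cells. The proliferation marker Mki67 was detected in 9 of 19, 14 of 24, 2 of 6 and 6 of 8. A heavy-chain V gene at 2 or more UMIs was found in 17, 17, 5 and 7 cells, over 14, 13, 5 and 6 different genes, and Ighv1-81 led in 4 normoxia wild-type cells. These groups are too small for ratios.

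Over all members of the rule, the highest and lowest ratios included genes of other cell types. In HySu wild type against normoxia wild type the highest were Prg2 (8.96, 81 of 142 UMIs in 1 cell), Cxcr3 (6.68), Aif1 (5.56), Cfp (4.58), Blvrb (4.54), Mfge8 (4.43), Fam96b (4.34), Bcl2a1d (4.26), Tespa1 (4.01) and Lgals1 (3.95). Cfp and Blvrb kept ratios of 4.72 and 4.26 in single-lineage cells. The lowest were Scgb3a2 and Bpifa1, which airway cells secrete, the neutrophil genes Cxcr2 and Retnlg, and Gpx2, Aldh1a7, Aldh1a1, Retnla, Spink5 and Satb1 (0.0541). Of Scgb3a2, 1733 of 2767 normoxia wild-type UMIs lay in 1 cell, as did 745 of 788 of Retnla, 80 of 82 of Spink5 and 62 of 66 of Bpifa1. In the knockout the highest were Acta2 (4.04), Rrm2 (3.87), Siglech (3.81), Dnajc14 (3.55), Scgb3a1 (3.15), Klhdc3 (3.14), Il1r2 (2.97), Rrm1 (2.96), Naaa (2.95) and Ube2z (2.77). A single knockout cell held 183 of 235 UMIs of Scgb3a1, and the top cell held 73 of 186 of Acta2 and 38 of 89 of Rrm2. For Dnajc14 the top cell held 3 of 74. The lowest were Spink5 (0.0111), Retnla (0.0370), Cyp2a5 (0.0427), Clic3 (0.141), Ager (0.192), Tmem212 (0.205), Scnn1a (0.220), Gprc5a (0.223), Igfbp5 (0.257) and Vegfa (0.264). Of the wild-type UMIs, the top cell held 289 of 400 for Ager and 41 of 64 for Cyp2a5, against 18 of 80 for Tmem212. Neutrophil markers summed to 5514, 3032 and 1900 CPM over all members in normoxia wild type, normoxia knockout and HySu wild type, and to 803, 780 and 525 CPM in single-lineage cells. The main lists kept their direction over all members, with medians under HySu of -1.01 for immediate early genes (18 lower, 1 higher), 0.46 for class I genes (7 higher, 0 lower) and 0.56 for B-1 genes.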

How the data were processed

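The files deposited by the authors hold raw UMI counts per gene and cell, 1 matrix per library, without normalization. Tools named in the submitters' processing notes are STAR 2.6.1a, cutadapt 1.17, Scanpy and featureCounts 2.0.1, with GRCm38 and mm10; order, settings and cell filter are not given in the sources used here. Library totals were 62747087, 63501686, 45589625 and 41308071 UMIs, which sets the counting intervals. With 1 library per group no test was made. UMIs were summed over cells and scaled to CPM with Python 3.11.15 and scipy 1.17.1, and TMM factors came from edgeR 4.0.16. A gene was compared with at least 30 UMIs in a pair. List medians use log2 ratios with 0.5 UMI added. The 10 highest and 10 lowest genes per pair were named among those that reached 50 CPM in a library, had an interval without 1 and, in the higher library, at least 33.3% of the level outside the rule; immunoglobulin, T cell receptor, haemoglobin, ribosomal, mitochondrial and unnamed genes were left out. Lists gave their most abundant members and those with the largest ratios, and a few others were named after their values were seen. Ratios were checked on simulated independent counts, drawn from the sums over all members. Such counts do not hold the clumping of UMIs in single cells, so the check does not cover it. Doublets were handled only by the second-lineage limits; single-lineage cells and their limits were chosen after seeing the data. Members and lists were chosen with earlier results of these data known.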

Additional observations from a re-analysis of the deposited data

How the results depend on the processing

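A stricter rule, with 0 T cell, endothelial and fibroblast UMIs, lower myeloid and surfactant limits and at most 1 UMI of S100a8, S100a9, Siglech, Nkg7 and Scgb1a1 together, left 1, 2, 0 and 0 cells and could not be run. No paired analysis was possible because each group is 1 library. Shares of members (2.43%, 2.60%, 1.98% and 0.557% in normoxia wild type, normoxia knockout, HySu wild type and HySu knockout) became 1.37%, 1.37%, 1.37% and 0.145% for single-lineage cells, 10.5%, 11.3%, 7.04% and 3.20% without the limits on other lineages, and 1.62%, 1.64%, 1.49% and 0.339% with secreting cells kept. In the same order they became 1.98% and 1.79% for the normoxia libraries on cells with at least 4726 UMIs, 1.97% and 1.93% with at least 10 marker UMIs, and 3.01% for normoxia knockout with at least 3. The HySu knockout share was 0.106 of that of HySu wild type and 0.106 of that of normoxia knockout in single-lineage cells, and 0.454 of HySu wild type without the limits.

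For HySu against normoxia over all members, the 660 higher genes became 1394 with TMM, 1271 with at least 10 UMIs, 247 with at least 100, 234 at a fold of 2, 1151 without the limits and 993 when abundant gene families were left out of the scaling. The 2469 lower genes became 1457 with TMM, 3989 with at least 10 UMIs, 810 with at least 100, 1591 in single-lineage cells, 1182 at a fold of 2, 1548 with secreting cells kept and 1332 after thinning. For the knockout, the 1084 higher genes became 1898 with at least 10 UMIs, 325 with at least 100 and 330 at a fold of 2, and the 974 lower genes 1927, 220 and 374 in the same order, 531 in single-lineage cells, 558 with secreting cells kept and 628 after thinning. In single-lineage cells, the 563 higher and 1591 lower genes under HySu became 375 and 849 after thinning, with 926 higher after TMM, and the 911 and 531 of the knockout became 414 and 343. Fewer or more genes pass a UMI minimum or a fold by construction.

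The log2 ratio changed sign for these genes under these settings, and the cause was not tested. In single-lineage cells Ager under HySu went from 3.04 to -3.72 with the second-lineage limits lowered by 50% and to -1.28 after thinning, and Itga2b in the knockout from 5.04 to -1.49 with the lowered limits. Over all members under HySu, Aif1 went from 2.45 to -0.68 without the limits, Mfge8 from 2.12 to -0.28 with at least 10 marker UMIs, and Bpifa1 from -3.53 to 0.80 in single-lineage cells and 1.01 with secreting cells kept. In the knockout, Rrm2 went from 1.92 to -0.65 in single-lineage cells, Scgb3a1 from 1.65 to -0.40 with at least 10 marker UMIs and Igfbp5 from -1.94 to 0.52 without the limits. Gprc5a (-2.15) became 1.55 in single-lineage cells and 2.08 with secreting cells kept, Scnn1a (-2.17) became 2.77 and 1.18, and Vegfa (-1.91) became 1.44 and 1.36. Of the list medians past 1.5-fold, the cell cycle in the knockout went from 0.63 to -0.17 in single-lineage cells and -0.12 with secreting cells kept, and the marginal zone list under HySu from -0.65 to 0.23 with at least 100 UMIs and 0.09 with secreting cells kept. Smaller medians under HySu also differed in sign between all members and single-lineage cells: 0.21 and -0.29 for the cell cycle, -0.24 and 0.25 for antioxidant genes, -0.21 and 0.49 for plasma cell genes, -0.27 and 0.12 for mitophagy and autophagy, -0.20 and 0.02 for hypoxia and glycolysis, 0.17 and -0.29 for cytokines and costimulation, and -0.17 and 0.09 for the interferon response.

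In single-lineage cells, 200 log2 ratios of named genes kept their direction within their counting interval, 7 moved beyond it and 3 changed sign, and 251 list medians stayed while 28 moved. Over all members these numbers were 235, 124 and 13 for genes and 566, 75 and 4 for lists, where a change of sign was counted only for values past 1.5-fold. Depth limits the genes with few UMIs, above all in the 6 single-lineage cells of HySu knockout.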
